A study of Homo sapiens with 8 samples.

Results

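The neddylation pathway was followed through 10 genes, UBE2F, UBE2M, NEDD8, NAE1, UBA3, RBX1, RNF7, CUL5, DCUN1D1 and SENP8, in MDA-MB-231 cells with and without N-carboxymethyllysine (CML). The genes were taken by symbol, and all 10 had a row among the 17649 genes of the deposited table. The list was chosen by the difference of UBE2F in CPM between control and CML-exposed cells in these same libraries. The differences of the 10 genes between the groups are therefore given as a description, with no p-value. CPM is the count of a gene scaled to its library's total, which the paper's methods adjust by a normalization factor (TMM). In 4 CML libraries UBE2F was 15.2% higher on average than in 4 control libraries, and the groups did not overlap. Of the other 9 genes, which all had overlapping groups, NAE1 was 10.1% higher, SENP8 was 13.1% lower (a percent difference of -13.1), and 7 had group means less than 5% apart.

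MDA-MB-231 cells, a human breast cancer line, are mesenchymal and lack the estrogen receptor, and CML is an advanced glycation end product, formed when lysine reacts with sugars or their breakdown products. The exposed group, titled NCML in the sample labels, received 1 μM CML for 48 hours, the control group received PBS, and both were kept in low-glucose medium, with 4 libraries each. The sequencer is labelled as NextSeq in one field and HiSeq in another. All libraries come from a single cell line, and the labels do not say whether the replicates were grown on separate days, so p-values measure only the spread between these libraries. The mesenchymal markers VIM, CD44, AXL and CAV1 summed to between 6102 and 6547 CPM in a library. PGR and FOXA1, a hormone receptor and a luminal factor, did not exceed 2 reads in any library, and PTPRC, a marker of blood cells, reached at most 0.650 CPM. GATA3 and ERBB2, also listed as luminal or receptor genes, had 3.47 to 5.61 CPM and 44.1 to 54.4 CPM, and the endothelial marker PECAM1 had 2.36 to 3.84 CPM. Depth was between 16559915 and 17729518 estimated reads in control and between 16161802 and 18954732 in CML libraries, and a single read equalled 0.0535 to 0.0622 CPM. In bulk RNA, fewer cells that express a gene and less RNA per cell cannot be told apart.

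Neddylation attaches the ubiquitin-like protein NEDD8 to a lysine of a target protein, and the cullins, the scaffolds of the cullin-RING ubiquitin ligases, are its best known targets. NEDD8 is activated by the heterodimer of NAE1 and UBA3 and handed to a conjugating enzyme, either UBE2M, which works with the RING protein RBX1 on most cullins, or UBE2F, which works with the RING protein RNF7 (also called RBX2 or SAG) on CUL5. DCUN1D1 helps the transfer onto cullins, SENP8 trims the NEDD8 precursor and removes NEDD8 from proteins other than cullins, and the COP9 signalosome removes it from cullins. A neddylated cullin is the active form of the ligase, and the small molecule pevonedistat (MLN4924) blocks the pathway at the activating enzyme.

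On GRCh38.p14, the assembly of the RefSeq table used for positions, UBE2F spans chromosome 2 from 237967014 to 238042782 and UBE2M chromosome 19 from 58555712 to 58558611. RBX1 lies on chromosome 22 from 40951378 to 40973309, and RNF7 on chromosome 3 from 141738298 to 141747560. NEDD8 lies on chromosome 14 from 24216857 to 24232367, NAE1 on chromosome 16 from 66802878 to 66830976 and UBA3 on chromosome 3 from 69054730 to 69080373. CUL5 lies on chromosome 11 from 108008898 to 108107761, DCUN1D1 on chromosome 3 from 182938074 to 182985918 and SENP8 on chromosome 15 from 72114258 to 72143692. Because UBE2F and UBE2M, and likewise RBX1 and RNF7, are related genes, the coding sequences of their MANE Select transcripts were compared for runs of identical bases that could let a read be assigned to the wrong gene. The longest run that UBE2F (555 coding bases) and UBE2M (549 coding bases) share is 11 bases, and the longest that RBX1 and RNF7 share is 12 bases. NEDD8 shares at most 16 coding bases with the ubiquitin gene UBB. The stretches that hold the runs of both enzyme pairs are shown 5′ to 3′ in coding orientation, with the identical bases in capitals, because they show how short the identity is. They cover coding bases 307 to 336 of UBE2F, 292 to 321 of UBE2M, 118 to 147 of RBX1 and 142 to 171 of RNF7, counted from the start codon.
UBE2F: aagatctggCACCCCAACATcacagagaca
UBE2M: atggtctatCACCCCAACATtgacctcgag
RBX1: gataactgtGCCATCTGCAGGaaccacatt
RNF7: gatacgtgcGCCATCTGCAGGgtccaggtg

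UBE2F, the conjugating enzyme that pairs with RNF7 and CUL5, had 19.6, 19.7, 18.8 and 18.9 CPM in control replicates 1 to 4. In CML replicates 1 to 4 it had 23.1, 22.0, 21.4 and 22.1 CPM. All 4 CML libraries lay above all 4 control libraries, and the lowest CML value, 21.4 CPM, was above the highest control value, 19.7 CPM. The groups averaged 19.2 ± 0.454 CPM without CML and 22.1 ± 0.697 CPM with it (SD, n = 4 each), a log2 difference of 0.19 (standard error 0.031) on the log2(CPM + 1) scale. Adding 1 to the CPM makes differences of genes with few reads look smaller. UBE2F was the 1 gene of the 10 whose groups did not overlap. Groups did not overlap for 3.78% of all genes and for 4.34% of the 13047 genes that averaged at least 1 CPM, of which 3.04% were higher and 1.3% lower with CML. Nothing is read from this count, because this contrast chose the gene. The value rests on 310 to 412 estimated reads per library, for which counting error alone is between 4.93% and 5.68%, more than the observed SD of 2.36% of the mean in control and 3.15% in CML libraries.

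**Figure D1:**
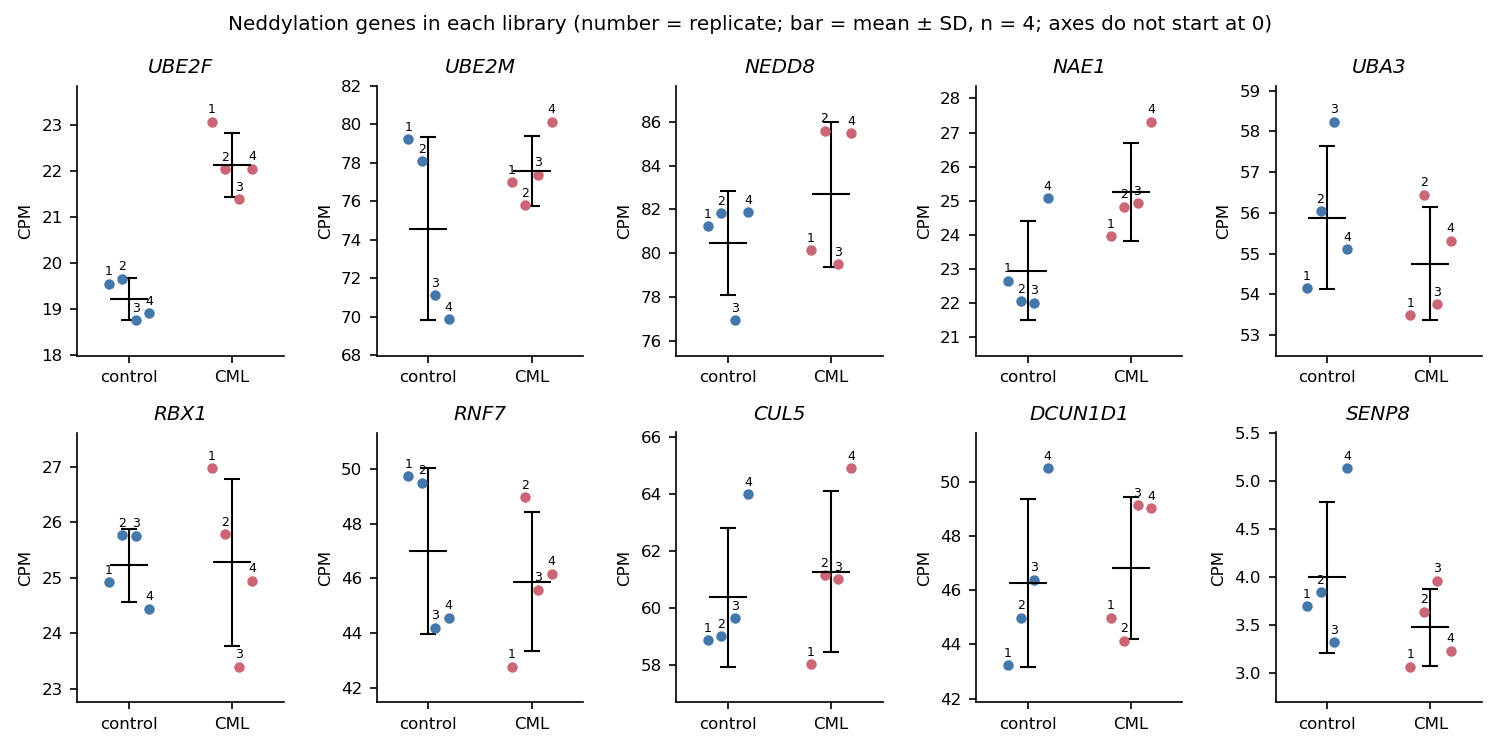
CPM of the 10 neddylation genes in each control (blue) and CML (red) library, with the replicate number beside each point and a black bar for the mean ± SD (n = 4); the axes do not start at 0. UBE2F is the panel in which the groups are apart, with control at 18.8 to 19.7 CPM and CML at 21.4 to 23.1 CPM.

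The estimated reads of UBE2F were whole numbers in only 3 of 8 libraries, and estimated reads are not whole where a read is divided between rows. The table has a row for UBE2F-SCLY, a readthrough transcript that joins UBE2F to its downstream neighbor SCLY (selenocysteine lyase) on the same strand. UBE2F-SCLY was listed at 0 in 3 libraries and reached 0.520 CPM in control replicate 3 and 1.25 CPM in CML replicate 1. With both rows added together, control libraries held between 19.1 and 19.7 CPM and CML libraries between 21.4 and 24.3 CPM, a mean difference of 16.3%, and the groups again did not overlap. SCLY itself averaged 15.5 ± 1.57 CPM without CML and 16.9 ± 2.13 CPM with it (SD, n = 4 each), with overlapping groups and an adjusted p of 0.897 in limma.

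UBE2M, the conjugating enzyme for most cullins, had 79.2, 78.1, 71.1 and 69.9 CPM in control replicates 1 to 4 and 77.0, 75.8, 77.4 and 80.1 CPM in CML replicates 1 to 4. Control replicates 1 and 2 lay within the range of the CML values, while control replicates 3 and 4 lay below all of them, so the groups overlapped. Its means were 74.6 ± 4.77 CPM (SD, n = 4) and 77.6 ± 1.83 CPM (SD, n = 4), a log2 difference of 0.06 (standard error 0.046). Per kilobase of transcript, UBE2F made up between 11.8% and 12.8% of the summed UBE2F and UBE2M level in control libraries and between 12.99% and 13.98% in CML libraries. These shares did not overlap, but the highest control share, 12.8% in control replicate 4, and the lowest CML share, 12.99% in CML replicate 4, were close together. The share contains UBE2F, which this contrast chose, so nothing is read from its higher values with CML. Control replicate 4 had the lowest UBE2M value of all libraries, 69.9 CPM.

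NEDD8, the modifier itself, had 81.2, 81.8, 77.0 and 81.9 CPM in control replicates 1 to 4 and 80.1, 85.6, 79.5 and 85.5 CPM in CML replicates 1 to 4. CML replicates 2 and 4 were above every control library, CML replicates 1 and 3 were not, and the log2 difference was 0.04 (standard error 0.034). NEDD8 also has a readthrough row, NEDD8-MDP1, which joins it to the phosphatase gene MDP1 and held at most 0.528 CPM. The estimated reads of NEDD8 were whole in 1 of 8 libraries.

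NAE1, the regulatory subunit of the activating enzyme, had 22.7, 22.1, 22.0 and 25.1 CPM in control replicates 1 to 4 and 24.0, 24.8, 24.9 and 27.3 CPM in CML replicates 1 to 4. Control replicate 4 was above 3 of the CML libraries, and without that library every CML value would lie above the control values. The means were 22.9 ± 1.45 CPM (SD, n = 4) and 25.3 ± 1.44 CPM (SD, n = 4), a log2 difference of 0.13 (standard error 0.056), which was 0.17 without control replicate 4 and 0.10 without CML replicate 4. UBA3, the catalytic subunit, had 54.1, 56.0, 58.2 and 55.1 CPM in control and 53.5, 56.4, 53.8 and 55.3 CPM in CML replicates 1 to 4. Its groups overlapped over most of their range, and the log2 difference was -0.03 (standard error 0.028). The subunits of the heterodimer thus differed between the groups in opposite directions by sign, with only the NAE1 difference larger than its SD within groups.

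RBX1, the RING protein of most cullin ligases, had 24.9, 25.8, 25.8 and 24.4 CPM in control replicates 1 to 4 and 27.0, 25.8, 23.4 and 24.95 CPM in CML replicates 1 to 4. Both the highest and the lowest value were CML libraries, and the log2 difference was 0.00 (0.0014, standard error 0.045). RNF7, the RING protein that works with UBE2F, had 49.7, 49.5, 44.2 and 44.6 CPM in control and 42.8, 49.0, 45.6 and 46.2 CPM in CML replicates 1 to 4. Control replicates 1 and 2 had the highest RNF7 values and CML replicate 1, the library with the highest UBE2F value, had the lowest. The log2 difference of RNF7 was -0.03 (standard error 0.056).

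CUL5, the cullin on which UBE2F and RNF7 act, had 58.9, 59.0, 59.6 and 64.0 CPM in control replicates 1 to 4 and 58.0, 61.2, 61.0 and 64.9 CPM in CML replicates 1 to 4. Replicate 4 was the highest library in both groups, and the log2 difference was 0.02 (standard error 0.041). DCUN1D1, the co-ligase, had 43.2, 45.0, 46.4 and 50.5 CPM in control and 45.0, 44.1, 49.1 and 49.0 CPM in CML replicates 1 to 4, a log2 difference of 0.02 (standard error 0.058). SENP8, the NEDD8 protease, was the least expressed of the 10 genes, with 3.70, 3.84, 3.33 and 5.13 CPM in control and 3.07, 3.64, 3.96 and 3.24 CPM in CML replicates 1 to 4. SENP8, which overlaps MYO9A on the opposite strand and may share reads with it, was covered by 52 to 90 reads per library. Its groups overlapped, and the log2 difference of SENP8, -0.15 (standard error 0.122), was -0.05 without control replicate 4.

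The libraries moved several of these genes together in ways that did not follow the groups. In control replicate 4, DCUN1D1 was 0.12, CUL5 0.07 and NAE1 0.06 above its own mean on the log2(CPM + 1) scale, and in CML replicate 4 the same genes were 0.08, 0.09 and 0.18 above. Their transcripts have a GC content of 33.3%, 35.8% and 40.0%. Other genes in or near this range were not above their means in both libraries. UBA3, with 38.4% GC, deviated by less than 0.01 in both libraries. SENP8, with 38.5% GC and only 52 to 90 reads per library, was above its mean by 0.38 in control replicate 4. In CML replicate 4 SENP8 deviated by -0.15. RNF7, with 40.2% GC, deviated by -0.06 and -0.01. UBE2M, with 63.2% GC the most GC-rich of the 10 transcripts, was 0.12 below its mean in control replicate 4 but 0.08 above it in CML replicate 4. UBE2F, with 45.8% GC, deviated by -0.12 in control replicate 4 and by 0.09 in CML replicate 4. With GC content and transcript length regressed out of every library, a setting chosen after seeing the data, the log2 difference was 0.18 for UBE2F, 0.11 for NAE1 and 0.05 for UBE2M. The part of GC content in the member differences was not tested.

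**Figure D2:**
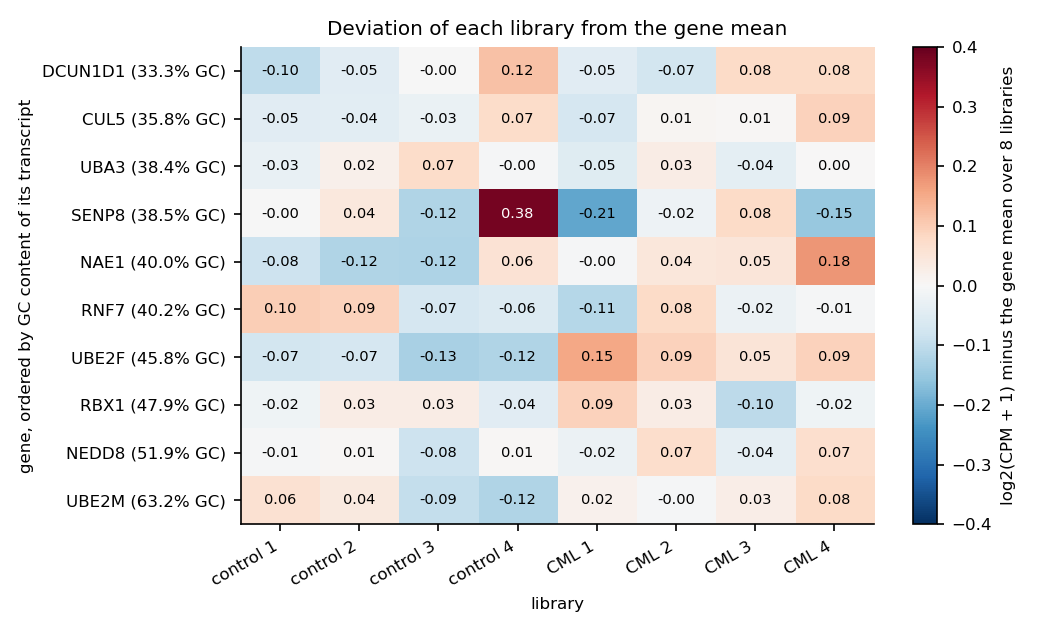
Deviation of each library from the gene's mean over 8 libraries, on the log2(CPM + 1) scale, with genes ordered by the GC content of the MANE Select transcript. UBE2F is below its mean in the 4 control libraries and above it in the 4 CML libraries, while DCUN1D1, CUL5 and NAE1 are above their means in both replicate 4 libraries.

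The level of a gene in all libraries was not what chose it, so levels were compared between genes, per kilobase of the MANE Select transcript and over the 8 libraries. NEDD8 had the highest level, 132 ± 4.74 CPM per kb (SD, n = 8), followed by UBE2M with 65.6 ± 3.20 CPM per kb (SD, n = 8). UBA3 had 26.2, RBX1 21.6, RNF7 17.4 and NAE1 13.3 CPM per kb, and CUL5 and UBE2F had 9.86 and 9.68 CPM per kb. DCUN1D1 had 5.93 and SENP8 0.895 CPM per kb. Only CUL5 and UBE2F, neighbors in this order, had ranges over the libraries that overlapped. The order depended on the length used. Per kilobase of all merged exons, a length chosen after seeing the data, UBE2M came first with 43.7 and NEDD8 next with 21.5 CPM per kb. Per kilobase of coding sequence NEDD8 stayed first. UBE2M and RNF7 followed with 139 and 137 CPM per kb, and their ranges, 127 to 146 and 126 to 147, overlapped. By this length DCUN1D1 had 59.9 and UBA3 39.8 CPM per kb.

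Paired levels were tested for 3 pairs of genes, 1 each for the conjugating enzymes, the RING proteins and the activating subunits. UBE2M exceeded UBE2F by 2.76 ± 0.095 on the log2 scale of CPM per kb (SD, n = 8), a 6.79-fold higher level that was seen in 8 of 8 libraries (2-sided exact paired permutation test, p = 0.0078, the smallest that 8 libraries allow, and the same after Benjamini-Hochberg adjustment over 3 pairs). The size of this difference also depended on the length, with 1.90 on the log2 scale per kilobase of coding sequence and 3.16 per kilobase of merged exons. NAE1 was below UBA3, with a difference of -0.98 ± 0.127 (SD, n = 8) in the same direction in every library (exact paired permutation test, adjusted p = 0.0078). The NAE1 and UBA3 difference was -1.41 per kilobase of coding sequence and -1.46 per kilobase of merged exons. RBX1 was above RNF7 by 0.31 ± 0.109 (SD, n = 8, exact paired permutation test, adjusted p = 0.0078). The RBX1 and RNF7 order depended on the length used. It was reversed per kilobase of coding sequence, with a difference of -0.81, and per kilobase of all merged exons, with -0.87. By each length the exact paired permutation test gave an adjusted p of 0.0078. This p therefore cannot tell which of RBX1 and RNF7 is higher. For the other pairs too, the p shows only that the libraries had the same direction at the length used. RNF7 has a transcript of 2.67 kb with only 339 coding bases, and which of its transcripts are made in these cells was not measured.

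**Figure D3:**
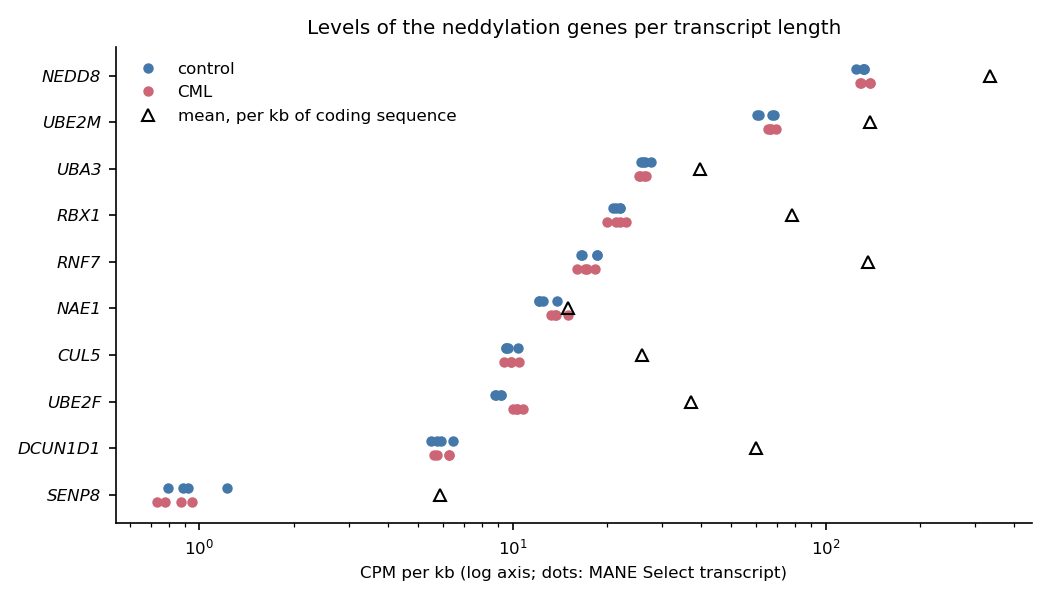
Level of each gene in CPM per kb on a log axis, with dots for the 4 control (blue) and 4 CML (red) libraries per kb of the MANE Select transcript and an open triangle for the mean per kb of coding sequence. UBE2M lies above UBE2F by either length, while RNF7 is below RBX1 per kb of transcript and above it per kb of coding sequence.

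The wider pathway was examined with 9 lists of 156 genes, of which 145 had a row and 139 averaged at least 1 CPM. The rule did not name these genes, but the lists were chosen with earlier results of these data known. Their genes were tested with limma over all genes, and the counts by list are a description. At an adjusted p under 0.3, the false discovery rate that the study used for this experiment, the fit called 0.895% of all 17649 genes, 0.674% as higher and 0.221% as lower with CML. Of the 145 list genes 3 were called, all higher with CML, and 142 were not. Among those 139 genes, 92 had a log2 difference above 0 and 47 below 0, with a median of 0.02, beside a median of 0.01 and 58.8% above 0 over all genes at this level. Groups did not overlap for 7 of the 139 that were higher with CML and 1 that was lower. Over all genes at this level the shares were 3.04% and 1.3%, and nothing is read from this count. No gene in the table passed an adjusted p of 0.05 in limma, where 1352 genes, or 7.66%, had an unadjusted p under 0.05. Of the 145 list genes 11 had an unadjusted p under 0.05 in limma, close to this share. The counts by list that follow are to be read beside it.

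In the DCN1-like co-ligases, the relatives of DCUN1D1, 0 of 4 genes were called in limma. An unadjusted p under 0.05 was found for 2 of them, beside 7.66% of all genes. DCUN1D4 averaged 48.7 ± 1.09 CPM without CML and 52.4 ± 1.23 CPM with it (SD, n = 4 each), with groups that did not overlap and a log2 difference of 0.10 (adjusted p = 0.323 from limma). DCUN1D3 had 17.9 ± 1.47 and 20.3 ± 0.701 CPM (SD, n = 4 each), also without overlap, and a log2 difference of 0.17 (adjusted p = 0.553 from limma). DCUN1D5 had a log2 difference of 0.05. DCUN1D4 was called without control replicate 4, where its adjusted p from limma was 0.280.

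Of the cullins other than CUL5, 0 of 7 were called and 0 had an unadjusted p under 0.05 in limma, and their log2 differences lay between -0.03 and 0.07. CUL1, the scaffold of the SCF ligases, averaged 68.0 ± 1.93 CPM without CML and 71.3 ± 2.31 CPM with it (SD, n = 4 each). CUL4A had 163 ± 9.00 and 170 ± 5.63 CPM, and CUL3 94.0 ± 4.67 and 96.4 ± 5.15 CPM (SD, n = 4 each). Of the COP9 signalosome, 0 of 10 subunits were called and 1 had an unadjusted p under 0.05. This was COPS7B, which averaged 25.9 ± 0.904 CPM without CML and 23.1 ± 0.872 CPM with it (SD, n = 4 each), a log2 difference of -0.16 and groups that did not overlap (adjusted p = 0.323 from limma). COPS7B was called under 4 of the 16 alternative settings, with adjusted p from limma of 0.280 without control replicate 4, 0.278 after quantile normalization, 0.295 without the variance trend and 0.149 with GC content and length removed. COPS3 and COPS6 had log2 differences of 0.07 each.

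A list of 8 genes, headed regulators of neddylated cullins, holds the exchange factor CAND1 and the ubiquitin ligases ARIH2 and RNF111. The heading is loose, since some of its genes, such as RNF111, are not established regulators of cullins. Of these 8 genes 0 were called and 0 had an unadjusted p under 0.05 in limma. RNF111 had the largest log2 difference of these, 0.13, against 0.04 for CAND1 and 0.03 for ARIH2. Of the adaptors and substrate receptors of CUL5, which include the elongins, the SOCS box proteins and the ASB family, 28 of 39 had a row, 0 were called and 1 had an unadjusted p under 0.05. Their median log2 difference was 0.00 (0.0048), and 13 of the 26 with a mean of at least 1 CPM lay above 0. ASB6, a SOCS box protein, had 37.6 ± 2.36 and 41.1 ± 0.693 CPM (SD, n = 4 each) with overlapping groups and an adjusted p of 0.549 in limma, or 0.269 without control replicate 1. WSB1 had a log2 difference of -0.08 and RAB40B, with 35 to 46 reads per library, of 0.14.

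Among 38 adaptors and receptors of the other cullins, 1 gene was called. CCNF, cyclin F, the F-box protein that gives the family its name and acts late in the cell cycle, rose from 11.6 ± 0.645 to 14.4 ± 0.557 CPM (SD, n = 4 each), a log2 difference of 0.30 (standard error 0.049, adjusted p = 0.173 from limma). All 4 CML libraries were above all 4 control libraries. The call was lost when control replicate 1 or 2 or CML replicate 1, 2 or 3 was left out, with adjusted p from limma between 0.325 and 0.440. It was also lost after centering on library medians (0.324) and with a replicate block (0.356). LRR1, a CUL2 receptor, had a log2 difference of 0.19 (adjusted p = 0.400 from limma), and SKP2, an F-box protein that targets the cell cycle inhibitor p27, of -0.14 (adjusted p = 0.652 from limma).

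Among 31 conjugating enzymes of ubiquitin and SUMO, 1 was called. UBE2C, the enzyme of the anaphase-promoting complex, rose from 36.3 ± 1.49 to 44.04 ± 0.770 CPM (SD, n = 4 each), a log2 difference of 0.27 (standard error 0.031, adjusted p = 0.0856 from limma), and it was called under all 16 alternative settings, which include leaving out each library in turn. The SD of UBE2C was 4.11% of the mean in control and 1.75% in CML libraries, beside a counting error of 3.47% to 4.13%. UBE2V1 and UBE2D4 had log2 differences of -0.06 and -0.07. Among 8 activating enzymes of other modifiers 1 was called. SAE1, a subunit of the SUMO activating enzyme, rose from 162 ± 4.25 to 173 ± 0.238 CPM (SD, n = 4 each), a log2 difference of 0.09 (standard error 0.019, adjusted p = 0.294 from limma). Its SD was 2.62% of the mean in control and 0.138% in CML libraries, while counting error alone is 1.76% to 1.94%. The standard error of SAE1 thus rests in part on a CML spread narrower than counting error. SAE1 stood close to the threshold, and leaving out any library except control replicate 4 gave an adjusted p from limma between 0.346 and 0.553. UBA6 and UBA1, the activating enzymes of ubiquitin, had log2 differences of 0.10 and 0.07 and were not called, although UBA6 was without control replicate 4 (adjusted p = 0.172 from limma) and UBA1 with GC content and length removed (adjusted p = 0.188 from limma). Of 11 genes of ubiquitin and other modifiers 0 were called in limma, where 1 had an unadjusted p under 0.05. The log2 differences were 0.05 for SUMO2 and -0.03 for SUMO3.

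**Figure D4:**
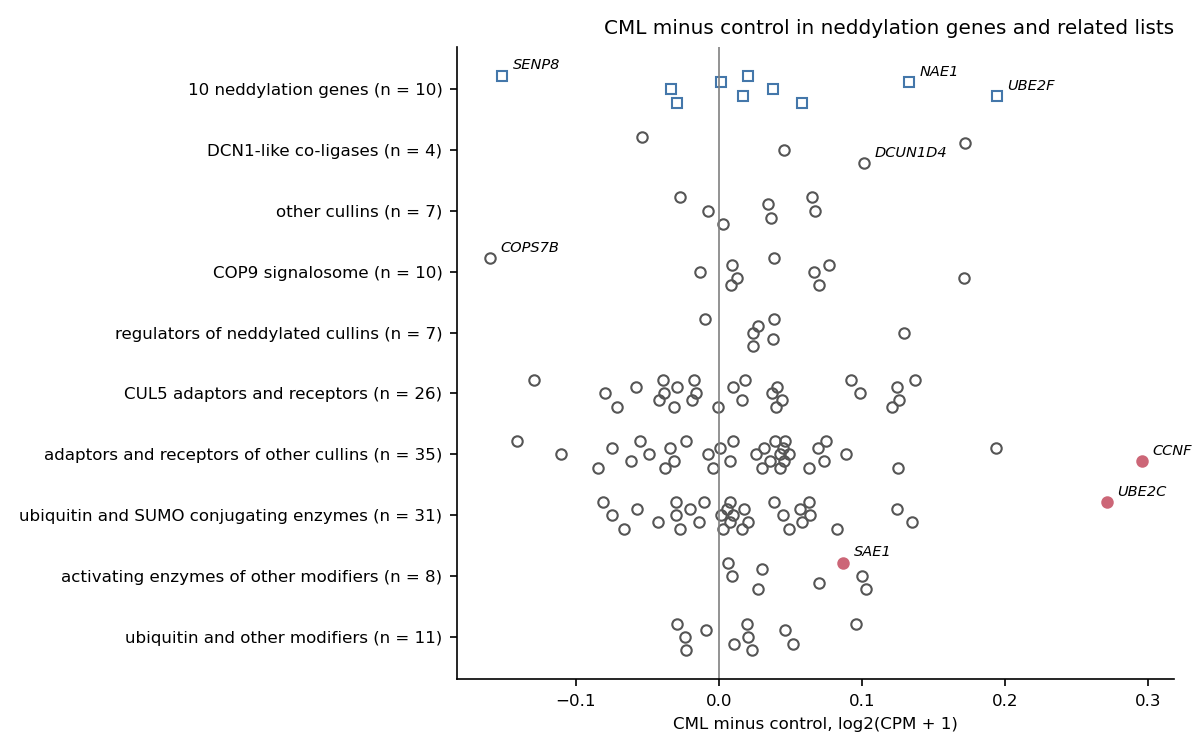
Log2 difference, CML minus control on the log2(CPM + 1) scale, of each gene averaging at least 1 CPM in the 10 neddylation genes (blue squares, not tested) and in 9 related lists (circles, filled where limma gave an adjusted p under 0.3). UBE2F lies at 0.19 and SENP8 at -0.15, and the 3 filled circles are CCNF, UBE2C and SAE1.

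The genes whose profile over the 8 libraries was most like that of UBE2F were found by the root mean square distance between mean-centered log2(CPM + 1) values, among 10768 other genes averaging at least 5 CPM. The nearest was LCMT1, a methyltransferase of the phosphatase PP2A, at a distance of 0.029, with 23.3 to 24.4 CPM in control and 25.7 to 27.6 CPM in CML libraries. DKK1, a secreted Wnt inhibitor, was also among the nearest, at 0.038, with 232 to 247 CPM in control and 257 to 277 CPM in CML libraries. A search for the profile of UBE2F favors genes with the same difference between the groups. The higher CML values of LCMT1 and DKK1 therefore follow from the search, and nothing is read from them. Of the other 8 neddylation genes in this comparison the nearest was UBE2M, at rank 713 with a distance of 0.085. RNF7 was at rank 6754 with 0.137. These ranks depend on the group difference that chose UBE2F, so nothing is read from them either.

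Under the 16 alternative settings UBE2F had log2 differences from 0.17 with libraries centered on their medians to 0.21 without CML replicate 3. Its direction was no test, because this contrast chose the gene. Its groups do not overlap, so leaving out a library could not reverse its sign. The difference of NAE1 stayed above 0, from 0.10 to 0.17. The signs of CUL5, DCUN1D1 and RBX1 changed with the setting, and their differences were smaller than their SD within groups.

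**Figure D5:**
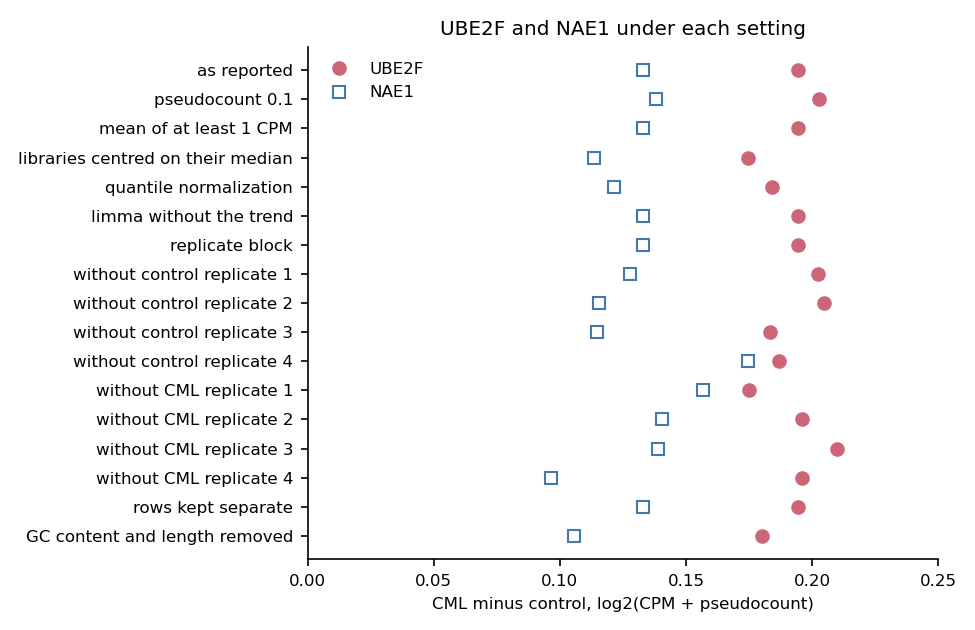
Log2 difference of UBE2F (filled circles) and NAE1 (open squares), CML minus control, as reported and under each alternative setting. UBE2F stays between 0.17 and 0.21 and NAE1 between 0.10 and 0.17.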

How the data were processed

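RNA-Seq libraries of 4 control and 4 CML-exposed MDA-MB-231 samples were compared, with groups and replicate numbers taken from the sample titles. The authors deposited 1 table of CPM values with 17681 rows. The submitters' processing notes name edgeR and hg38 without a role, and the paper's methods describe CPM scaled by TMM factors. The aligner and counting tool of this experiment are not given in the sources used here. Columns summed to between 986730 and 1014124. Each column fell on steps of 0.01 of a read, as estimated counts give, and between 85.1% and 86.1% of the values above 0 were whole reads (within 0.02). A count test was therefore not run.

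Rows that shared a symbol were averaged (32 symbols), and log2(CPM + 1) was fitted using limma 3.58.1 under R 4.3.3 with a variance trend, no covariates and Benjamini-Hochberg adjustment over 17649 genes, including rows at 0. Calls were made at 0.3, the study's rate for this experiment, and counted at 0.05. Pairs of genes were compared within libraries by exact sign-flip permutation tests. Transcript lengths, GC content and coding sequences came from GENCODE release 44 lifted to GRCh37, and positions from RefSeq on GRCh38.p14. The methods name a stranded kit for the human tumors, and whether these libraries kept strand is not stated for this experiment, so SENP8 and MYO9A, which overlap on opposite strands, may share reads.

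The genes named are the 10 members, from each list the called genes and the 3 with the smallest p at a mean of at least 1 CPM, readthrough rows, markers, and the 3 genes with the profile nearest to that of UBE2F. Some genes that this rule names are not reported here. Members and lists were chosen with earlier results of these data known. Markers without a row, ESR1 and CD3E, were not analysed here. As alternatives, the pseudocount was set to 0.1, genes averaging under 1 CPM were dropped, and results were recomputed with other scalings, limma without the trend, a replicate block, separate rows, other lengths, and each library left out in turn. Figures were drawn with matplotlib 3.10.9.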

Additional observations from a re-analysis of the deposited data

Results flagged for a closer look

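Libraries whose value lay far from the other 3 of their group were sought with Dixon's ratio, the gap to the next value over the whole range. The critical value was passed in 7 of 98 groups, where chance gives about 1 in 20 groups, or 4.9. For 2 of the 20 groups of neddylation genes it held. NEDD8 had 77.0 CPM in control replicate 3, below the other control libraries at 81.2 to 81.9 CPM. CUL5 had 64.0 CPM in control replicate 4, above the other control libraries at 58.9 to 59.6 CPM. CUL1 was also high in control replicate 4, with 70.9 CPM against 66.9 to 67.2 CPM. SKP2 had 7.12 CPM in CML replicate 2 against 6.22 to 6.31 CPM, and SUMO2 167 CPM in CML replicate 4 against 160 to 161 CPM. CAV1, a marker of these cells, was low in replicate 1 of both groups, with 136 CPM against 148 to 149 CPM in control and 151 CPM against 161 to 162 CPM in CML.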

How the results depend on the processing

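Over all genes, 158 were called at an adjusted p under 0.3. The number was 73 after centring on library medians and 840 after removal of GC content and length, chosen after seeing the data, and from 20 (without CML replicate 2) to 690 (without control replicate 4) with a library left out. In the pathway lists 3 genes were called, 1 after centring, 1 with the replicate number as a block and 10 after removal of GC content and length, and from 1 to 9 with a library left out, the 9 without control replicate 4. ASB6, WSB1, LRR1 and UBE2V1 were among those called after removal of GC content and length (adjusted p from limma 0.268, 0.158, 0.293 and 0.170). CCNF was called under 9 and SAE1 under 3 of 16 settings. RBX1 minus RNF7 was reversed with coding length (-0.81) and merged exons (-0.87). UBE2M minus UBE2F was 1.90 and 3.16 by these lengths. The pairs other than RBX1 and RNF7 kept their direction. All pairs had an adjusted p between 0.0078 and 0.0156 in the exact paired permutation test, RBX1 and RNF7 also where their order was reversed. The differences of the 10 neddylation genes moved by less than 1 SD between replicates under each setting, with sign changes for CUL5, DCUN1D1 and RBX1. The cause of these shifts was not tested. Same-numbered libraries of the groups had correlations of deviations of 0.304, -0.086, -0.053 and 0.509 for replicates 1 to 4. Differently numbered libraries had between -0.426 (control replicate 1, CML replicate 4) and 0.165 (control replicate 2, CML replicate 3). Replicates 1 and 4 thus exceeded every differently numbered combination, while replicates 2 and 3 did not. The labels name no pairs, so the main fit did not pair the numbers. Whether replicates 1 and 4 share an effect was not tested. With the block, which leaves each group difference as it is in this balanced design, the fit called 189 genes over all. The edgeR alternative was not run because the reads were not whole. With 52 to 90 reads, SENP8 had a counting error of 10.5% to 13.9%, which limits what can be seen for it.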
